A study of Mus musculus with 6 samples.

Results

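Type IV collagen is the network-forming collagen of basement membranes, and mice carry 6 genes for its chains, Col4a1 to Col4a6. The chains were taken by symbol from the deposited expression tables, in which they were 6 of 22026 genes. They were compared between developing (P5, postnatal day 5) and adult (P30, postnatal day 30) choroid endothelial cells (ECs), with 3 isolations per age and 7 animals pooled in each isolation. At both ages the mice were of strain 129/B6 and were injected with an antibody that labels VE-Cadherin, the junction molecule of ECs, before RPE/choroid tissue was dissected and digested. The labelled cells were sorted by flow cytometry and their RNA was sequenced at once. The P30 mice were of both sexes.

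Each type IV collagen molecule is a triple helix of 3 chains. The α1 and α2 chains (Col4a1, Col4a2) assemble together and are laid down by nearly every vessel. The α3, α4 and α5 chains (Col4a3, Col4a4, Col4a5) assemble into a second, more heavily crosslinked network, best known from the kidney glomerulus, where it takes over from the α1 and α2 network as the tissue matures. The α5 chain also joins α6 (Col4a6) in yet another helix. In the eye, type IV collagen lies in the basement membranes that form the bounding layers of Bruch's membrane. These are the basement membrane of the retinal pigment epithelium (RPE) and that of the choroid capillaries.

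The 6 genes lie as 3 head-to-head pairs, each pair transcribed in opposite directions from neighbouring starts. In the GENCODE annotation of mm9, Col4a1 (chromosome 8, 11198423 to 11312826, minus strand, 52 exons in its longest transcript) and Col4a2 (chromosome 8, 11312805 to 11449287, plus strand, 48 exons) overlap by 22 bases at their starts. Col4a4 (chromosome 1, 82447298 to 82583424, minus strand, 49 exons) and Col4a3 (chromosome 1, 82583496 to 82718634, plus strand, 52 exons) are 71 bases apart. Col4a6 (chromosome X, 137599946 to 137908619, minus strand, 45 exons) and Col4a5 (chromosome X, 137909928 to 138123778, plus strand, 53 exons) are 1308 bases apart. Whether the authors' counting used the strand is not given in the sources used here, so reads from the shared bases of Col4a1 and Col4a2 could have gone to either gene.

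The stretch between Col4a4 and Col4a3 is shown because both genes start from it and both were higher at P30. For comparison, the same number of bases before the starts of Col4a5 and Col4a6 is shown, since these chains share a chromosome but not a start. All are read 5′ to 3′ from mm9, at chr1:82583425-82583495 (plus strand), chrX:137909857-137909927 (plus strand) and chrX:137908620-137908690 (minus strand). Capitals mark a match on either strand to 1 of 4 motifs, namely the GC box GGGCGG, the CCAAT box, the pyrimidine-rich motif CCCTCCCC and the TATA box in the form TATAAA.
Between Col4a4 and Col4a3: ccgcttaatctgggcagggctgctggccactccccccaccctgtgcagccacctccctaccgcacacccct
Before Col4a5: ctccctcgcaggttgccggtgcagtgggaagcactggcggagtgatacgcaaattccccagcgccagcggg
Before Col4a6: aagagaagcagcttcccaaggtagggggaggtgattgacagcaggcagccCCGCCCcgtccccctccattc
Of the 3 stretches, that of Col4a6 alone held a match, to the GC box on its other strand. That motif was in 20.7% of 32841 RefSeq promoters (GRCm38.p6) over the same length directly before the start. The share was 13.3% for the CCAAT box, 3.99% for the pyrimidine-rich motif and 4.42% for the TATA box. The motifs searched do not overlap one another in these stretches. G and C made up 69.0% of the bases between Col4a4 and Col4a3, 66.2% of those before Col4a5 and 63.4% of those before Col4a6.

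Expression is given as FPKM, the number of sequenced fragments scaled to transcript length and library size, so that levels of different genes can be set side by side. Changes between ages are differences in log2(FPKM + 1), P30 minus P5, from a limma fit. The fit held the 12481 genes whose mean reached 5 FPKM at P5, at P30 or at both. On this scale the change of a gene of low FPKM is understated. To be called, a gene needed an adjusted p (Benjamini-Hochberg) below 0.01 and means of FPKM + 1 that were 2-fold or more apart. Of all genes fitted, 5.89% were called higher at P30 and 5.82% higher at P5. Values of all P30 isolations lay above those of all P5 isolations for 22.0% of the genes fitted, and below them for 33.0%. Read counts were not used here, so the depth behind each value is unknown. The FPKM of all genes summed to between 1432700 and 1734639 per isolation, no 2 isolations held identical values, and 33.4% to 37.3% of the genes were listed at 0. Isolations are separate pools of animals, and p-values measure the spread between such pools.

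The α1 and α2 chains were among the most abundant transcripts of developing choroid ECs and were lower in the adult, whereas α3 and α4 were near the lower end of the measured range at P5 and were called higher at P30. All 6 chains entered the fit. Col4a1 was called higher at P5, Col4a3 and Col4a4 were called higher at P30, and Col4a2, Col4a5 and Col4a6 were not called. Col4a3, Col4a4 and Col4a6 reached the minimum FPKM only through P30. Against the backgrounds above, 1 of 6 chains was called higher at P5 and 2 of 6 at P30. In these bulk samples a change in the number of cells that express a chain and a change in RNA per cell cannot be told apart.

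Col4a1, the chain present in α1α1α2 helices in a double dose, had an FPKM of 4128, 4281 and 4314 at P5 and of 1669, 2254 and 1417 at P30, in the order of replicates 1, 2 and 3 that all later values keep. Every P5 isolation lay above every P30 isolation, and the P5 values were the closer together. The mean was 4241 ± 99.5 (SD, n = 3) at P5 and 1780.1 ± 429.6 at P30, 2.38-fold higher at P5 (log2 difference -1.28, SE 0.17, adjusted p = 0.00161 from limma). In rank, Col4a1 stood 8th, 7th and 6th among all genes in the P5 isolations and 95th, 67th and 108th in those of P30. The call was lost without P5 replicate 2 (adjusted p = 0.0108 from limma) or P5 replicate 3 (adjusted p = 0.0112 from limma), with the log2 difference at -1.27 in each case.

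Col4a2, its partner, had 2738, 2693 and 2501 at P5 and 1299.9, 1708 and 1189.8 at P30. Again no P30 isolation reached the lowest of P5, and P30 replicate 2 was the highest of its age, as it was for all the other chains. The means were 2644 ± 126 and 1399 ± 273, a 1.89-fold difference. It passed the adjusted p (0.00311 from limma, log2 difference -0.93, SE 0.15) but not the 2-fold limit. Without P30 replicate 2 it was called, at a log2 difference of -1.09 (adjusted p = 0.00155 from limma).

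**Figure D1:**
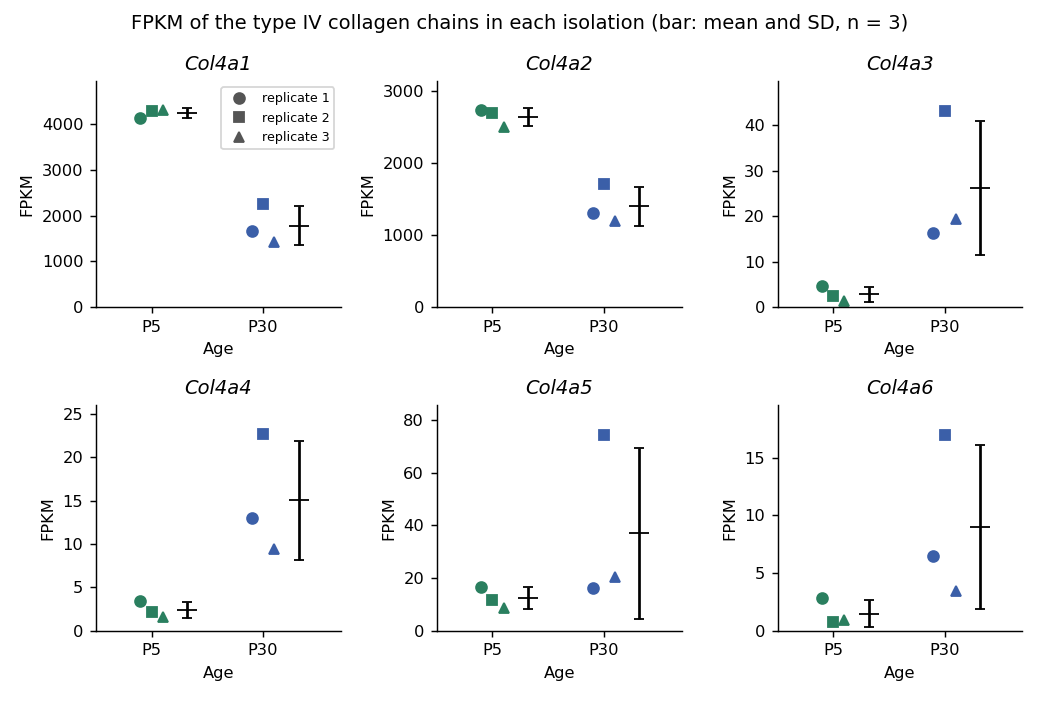
FPKM of each chain in each isolation at P5 (green) and P30 (blue), with marker shapes for replicates and a black bar for the mean and SD of 3 isolations; each panel has its own linear axis from 0. Col4a1 and Col4a2 sit lower at P30, Col4a3, Col4a4 and Col4a6 sit higher without overlap, and Col4a5 overlaps, with P30 replicate 2 at 74.5.

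Col4a3, whose product is the chain bearing the Goodpasture autoantigen, had an FPKM of 4.70, 2.35 and 1.42 at P5 and of 16.2, 43.1 and 19.4 at P30. All 3 P30 isolations were above all 3 of P5, and P30 replicate 2 was far above the other two. The mean rose from 2.82 ± 1.69 to 26.2 ± 14.7, a 7.12-fold difference in FPKM + 1 (log2 difference 2.80, SE 0.47, adjusted p = 0.00401 from limma). The call was lost without P5 replicate 2 (log2 difference 2.75, adjusted p = 0.0198 from limma), without P5 replicate 3 (2.51, adjusted p = 0.0195 from limma) and without P30 replicate 2 (2.38, adjusted p = 0.0104 from limma).

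Col4a4, which shares its start region with Col4a3, had 3.46, 2.11 and 1.62 at P5 and 13.0, 22.6 and 9.43 at P30. The ages did not overlap here either. The mean rose from 2.40 ± 0.953 to 15.0 ± 6.82, a 4.72-fold difference in FPKM + 1 (log2 difference 2.19, SE 0.41, adjusted p = 0.00626 from limma). This was the less firm of the 2 calls. It was lost when any isolation other than P30 replicate 3 was left out, with the log2 difference between 1.87 and 2.40 and the adjusted p between 0.0132 and 0.0292 (limma).

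Col4a5, the chain that joins either α3 and α4 or α6, had 16.7, 11.8 and 8.46 at P5 and 16.1, 74.5 and 20.2 at P30. P30 replicate 1 lay below P5 replicate 1, so the ages overlapped, and P30 replicate 2 carried most of the difference in mean. The means were 12.3 ± 4.14 and 36.9 ± 32.6 (log2 difference 1.23, SE 0.55, adjusted p = 0.115 from limma). The 95% interval of the difference ran from -0.06 to 2.51, which holds both no change and one as large as that of Col4a4. Without P30 replicate 2 the log2 difference was 0.56.

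Col4a6 was the least abundant chain at both ages, with 2.80, 0.73 and 0.95 at P5 and 6.51, 17.0 and 3.48 at P30. Its P30 isolations all exceeded those of P5, but the step from P5 replicate 1 to P30 replicate 3 was small beside the spread within P30. The means were 1.49 ± 1.14 and 8.99 ± 7.08 (log2 difference 1.85, SE 0.63, 95% interval 0.39 to 3.32, adjusted p = 0.0506 from limma), and the gene was not called. Without P30 replicate 2 it fell under the minimum FPKM and could not be fitted.

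**Figure D2:**
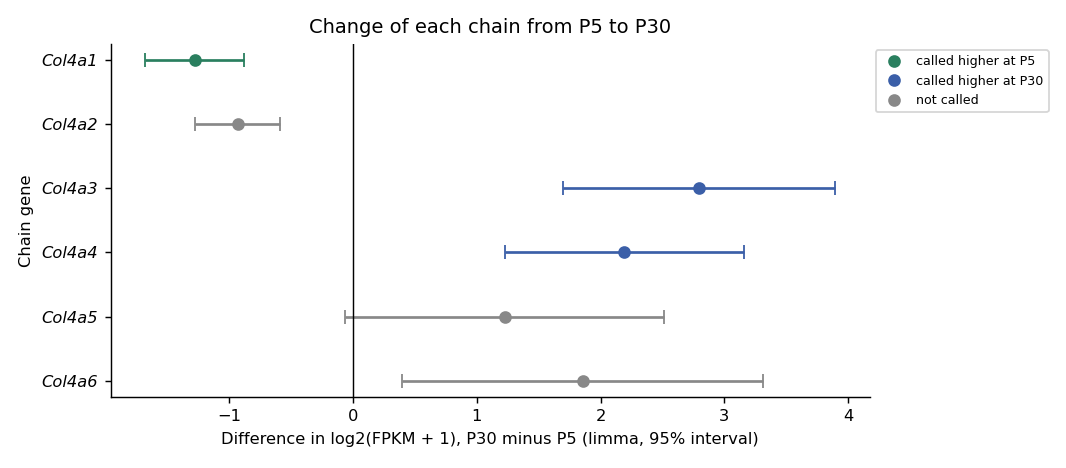
Difference in log2(FPKM + 1), P30 minus P5, for each chain from the limma fit with its 95% interval; green marks a gene called higher at P5, blue one called higher at P30 and grey one not called. Col4a1 at -1.28 and Col4a2 at -0.93 lie left of 0, Col4a3 at 2.80 and Col4a4 at 2.19 lie right of it, and the interval of Col4a5 spans 0.

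In order of level, Col4a1 stood above Col4a2 in each of the 6 isolations. Both stood far above the other chains at either age. At P5, Col4a5 came next, with its lowest isolation (8.46) above the highest of Col4a3 (4.70). The ranges of Col4a3, Col4a4 and Col4a6 overlapped at P5, although Col4a6 was the lowest of the 3 in each single isolation. The order of Col4a3 and Col4a4 at P5 was not resolved. At P30 the order of the means was Col4a5, Col4a3, Col4a4 and Col4a6, but each of these chains overlapped the next in its range. Within single isolations, Col4a3 exceeded Col4a4 in 3 of 3 at P30, and Col4a3 reached about the level of Col4a5 in P30 replicate 1 (16.2 against 16.1) and replicate 3 (19.4 against 20.2).

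The make-up of the family differed between the ages. The summed FPKM of the 6 chains was 6893, 6991 and 6827 at P5 and 3020.3, 4119.7 and 2659.6 at P30, with means of 6904 ± 82.5 and 3267 ± 761 (SD, n = 3). As a share of all FPKM in an isolation, the family took 0.468%, 0.471% and 0.477% at P5 and 0.184%, 0.237% and 0.169% at P30. Col4a1 made up 59.9%, 61.2% and 63.2% of the family at P5 and 55.2%, 54.7% and 53.3% at P30. Col4a2 made up 39.7%, 38.5% and 36.6% at P5 and 43.0%, 41.5% and 44.7% at P30. The share of Col4a1 was thus lower, and that of Col4a2 higher, in every P30 isolation than in any of P5.

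Each of the rarer chains had a larger share of the family in all P30 isolations than in any P5 isolation. The share of Col4a3 was 0.0682%, 0.0336% and 0.0208% at P5 and 0.536%, 1.05% and 0.730% at P30. That of Col4a4 was 0.0502%, 0.0302% and 0.0237% at P5 and 0.431%, 0.549% and 0.355% at P30. For Col4a5 the shares were 0.242%, 0.169% and 0.124% against 0.534%, 1.81% and 0.761%, so the overlap seen in its FPKM was absent from its share, whose denominator was lower at P30. For Col4a6 they were 0.0406%, 0.0104% and 0.0139% against 0.216%, 0.412% and 0.131%. Col4a3, Col4a4 and Col4a5 together made up 0.361%, 0.233% and 0.168% of the family at P5 and 1.50%, 3.40% and 1.85% at P30. Col4a1 and Col4a2 made up the rest in each isolation, apart from Col4a6. For the share of each single chain the exact two-sided permutation test gave p = 0.1, the smallest that 3 isolations against 3 allow, so none of these comparisons could pass 0.05.

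**Figure D3:**
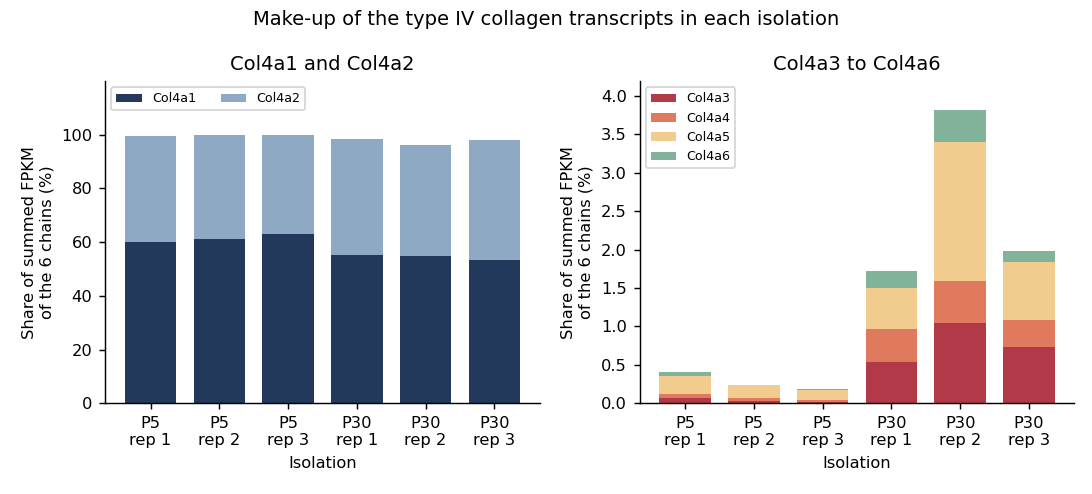
Share of each chain, in percent, of the summed FPKM of the 6 chains, stacked for each isolation, with Col4a1 and Col4a2 on the left and Col4a3 to Col4a6 on the right on a separate scale. The stack of the 4 rarer chains reaches 0.401%, 0.243% and 0.182% in the P5 isolations and 1.72%, 3.81% and 1.98% in those of P30.

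Between the ages, the ratio within a pair separated for Col4a1 to Col4a2 and for Col4a5 to Col4a6, but overlapped for Col4a3 to Col4a4. Col4a1 to Col4a2 was 1.51, 1.59 and 1.73 at P5 and 1.28, 1.32 and 1.19 at P30, lower in all P30 isolations (exact two-sided permutation test, p = 0.1). An α1α1α2 helix uses these chains at a ratio of 2, which no isolation reached in FPKM. Col4a3 to Col4a4 was 1.36, 1.11 and 0.877 at P5 and 1.25, 1.90 and 2.06 at P30, with overlap between the ages (exact two-sided permutation test, p = 0.2). Col4a5 to Col4a3 was 3.55, 5.03 and 5.96 at P5 and 0.995, 1.73 and 1.04 at P30, again without overlap. Col4a5 to Col4a6 was 5.96, 16.2 and 8.91 at P5 and 2.48, 4.38 and 5.82 at P30, where the nearest isolations of the 2 ages differed by little.

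Markers of ECs, and of other cells of the tissue, were set beside the chains. The 8 endothelial markers were all listed, and their sum ranged from 18049 to 18522 FPKM at P5 and from 24631 to 29965 FPKM at P30. Plvap, a protein of the diaphragms of fenestrated capillaries, and Emcn led that list at P30, at 11590 ± 2515 and 5523 ± 357 (SD, n = 3). None of the 8 was at 0 in any isolation. The fall of Col4a1 was also seen relative to the sorted marker itself. The ratio of Col4a1 to Cdh5, the gene of VE-Cadherin, was 1.43, 1.39 and 1.45 at P5 and 0.859, 1.20 and 0.770 at P30. The ratio of Col4a2 to Cdh5 was 0.951, 0.878 and 0.843 at P5 and 0.669, 0.912 and 0.647 at P30, and overlapped. Cdh5 itself was lower at P30 without overlap, at 2971 ± 95.4 and 1885 ± 52.4. Relative to Pecam1, another endothelial marker, whose levels overlapped between the ages, both chains were lower at P30 without overlap. That ratio was 2.68, 2.55 and 2.67 against 1.06, 1.56 and 1.14 for Col4a1, and 1.78, 1.60 and 1.55 against 0.825, 1.18 and 0.957 for Col4a2.

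Markers of several non-endothelial cells differed between the ages. Of all genes fitted, 22.0% were higher at P30 without overlap and 5.89% were called higher at P30, to be set beside the marker counts. Best1 and Cnn1 are in the counts without overlap but were not fitted. The 8 RPE markers summed to 149, 68.3 and 73.1 FPKM at P5 and to 3854, 2139 and 503 at P30, 8 of 8 were higher at P30 without overlap and 5 were called. Ttr and Rgr led them at P30, at 1052 ± 873 and 504 ± 372. The 7 pericyte markers summed to 1712, 894 and 468 at P5 and to 1841, 6228 and 3819 at P30, and 4 of 7 did not overlap while 1 was called. Rgs5 and Pdgfrb led these, and Rgs5 had 1283, 4082 and 2660.2 in P30 replicates 1, 2 and 3. The 6 smooth muscle markers summed to 175, 122 and 85.4 at P5 and to 431, 1083 and 311 at P30, led by Acta2 and Tagln, with 6 of 6 without overlap and 2 called. The 6 fibroblast markers summed to between 725 and 1193 at P5 and between 1776 and 4488 at P30, led by Dcn and Col3a1, with 3 of 6 without overlap and 1 called. Of these 4 lists, Rpe65 and the pericyte marker Higd1b were listed at 0 in P5 replicates 2 and 3, and the smooth muscle marker Cnn1 in P5 replicate 3, whereas all their other markers were above 0 throughout. Their part in the higher levels of Col4a3, Col4a4 and Col4a6 was not tested.

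The 6 Schwann cell markers, led by Cnp and Mbp, summed to between 60.9 and 109.5 FPKM at P5 and between 119 and 347 FPKM at P30, with 4 of 6 without overlap and 0 called by limma (3 at an unadjusted p below 0.05). For the unadjusted limit the share of all genes fitted was not computed. The sums of the haematopoietic markers (led by Lyz2 and Cd68), the pigment cell markers (led by Dct and Pmel) and the erythroid markers (led by Hba-a1 and Hbb-b1) overlapped between the ages. Of the 6 haematopoietic markers, however, 2 were lower at P30 without overlap and 1 of these was called higher at P5. Among all genes fitted the shares were 33.0% and 5.82%. That gene was Ptprc, which encodes the leukocyte antigen CD45 and is named after its values were seen, at 27.1 ± 1.51 and 7.82 ± 0.187 (SD, n = 3; adjusted p = 0.000732 from limma).

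Within each age, the order of the isolations by Col4a3 and by Col4a5 was that of the pericyte list, with replicates 1, 2 and 3 in falling order at P5 and replicates 2, 3 and 1 at P30. The order by Col4a4 was that of the smooth muscle list, and so was the order by Col4a2, a chain that was lower at P30. The order by Col4a6 was that of the erythroid list. With 3 isolations per age such orders are a description only. At P30 none of the 4 rarer chains was ordered as the RPE list, whose highest isolation was replicate 1. At P5 the order by Col4a6 was that of the RPE list. P5 replicate 1 and P30 replicate 1 had close pericyte sums, 1712 and 1841, but their smooth muscle sums were 175 and 431 and their RPE sums 149 and 3854. In these isolations, Col4a3 was 4.70 and 16.2, Col4a4 3.46 and 13.0, and Col4a6 2.80 and 6.51, whereas Col4a5 was 16.7 and 16.1. This pair, 1 isolation of each age, was picked after the values were seen, and no cause was tested with it.

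Relative to these lists the chains parted. Per 1000 FPKM of the pericyte list, Col4a3 was 2.75, 2.63 and 3.04 at P5 and 8.80, 6.92 and 5.08 at P30, higher in every P30 isolation. Col4a4 was 2.02, 2.36 and 3.47 at P5 and 7.07, 3.63 and 2.47 at P30, and Col4a5 9.76, 13.2 and 18.1 at P5 and 8.76, 12.0 and 5.30 at P30, both with overlap. Per 1000 FPKM of the smooth muscle list, Col4a3 was 26.9, 19.3 and 16.6 against 37.6, 39.8 and 62.4, and Col4a4 was 19.8, 17.3 and 19.0 against 30.2, 20.9 and 30.3. Both were higher at P30 without overlap, whereas Col4a5 was lower, at 95.6, 96.9 and 99.1 against 37.4, 68.8 and 65.0. Per 1000 FPKM of the fibroblast list, Col4a3 and Col4a4 were higher at P30 without overlap, and Col4a5 and Col4a6 overlapped. Per 1000 FPKM of the RPE list, Col4a3 was 31.6, 34.4 and 19.4 against 4.20, 20.1 and 38.6, with overlap, and Col4a4, Col4a5 and Col4a6 were lower at P30. Col4a1 and Col4a2 were lower at P30 without overlap relative to all of these lists and to the endothelial list. The sum of each list was itself higher at P30 without overlap, so these 2 chains could only come out lower. Relative to the endothelial list, Col4a3 and Col4a4 were higher at P30 without overlap, and Col4a5 and Col4a6 overlapped.

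**Figure D4:**
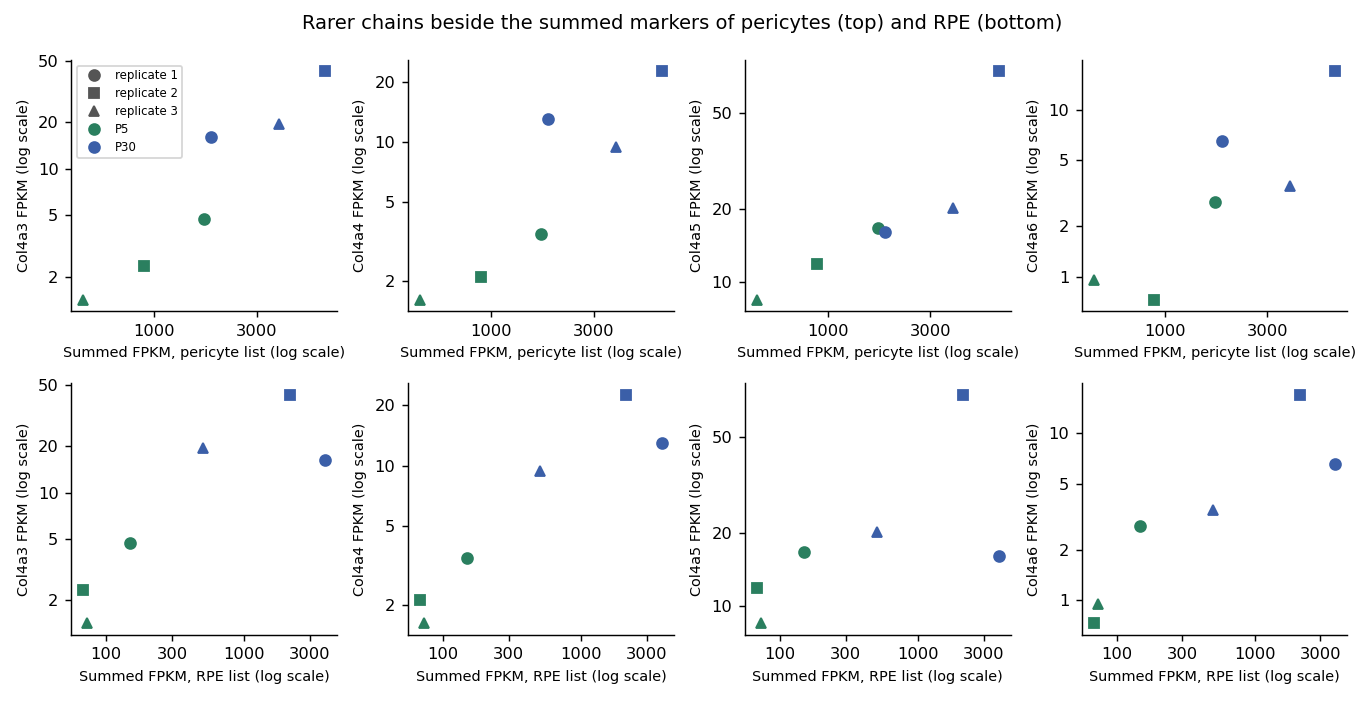
FPKM of Col4a3 to Col4a6 against the summed FPKM of the pericyte list (top row) and of the RPE list (bottom row), on log axes, with 1 point per isolation (green P5, blue P30). P30 replicate 2, the highest isolation for all 4 chains, is the highest for pericyte markers at 6228 but not for RPE markers, where P30 replicate 1 leads at 3854.

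The genes whose profile over the 6 isolations lay nearest to that of a chain were found by the root mean square difference of mean-centred log2(FPKM + 1). The nearest to Col4a1 were Nmt2 (0.0702), Ccdc88c (0.0728) and Cd40 (0.0855), all nearer to it than Col4a2 was (0.187). The nearest to Col4a3 were Rarres2 (0.128), Fbln7 (0.160) and Ndrg2 (0.169), while Col4a4 lay at 0.395 from it and Col4a5 at 0.831. Fbln7 had an FPKM of 8.41, 4.16 and 2.93 at P5 and of 23.8, 52.9 and 25.6 at P30. Within the family, Col4a4 was nearer to Col4a6 (0.345) than to Col4a3. The genes nearest to Col4a6 were the smooth muscle markers Acta2 (0.200) and Tagln (0.234), followed by Tmprss2 (0.264). Those nearest to Col4a4 were Cp (0.0863), Egr2 (0.103) and Myl9 (0.132), the last a myosin light chain of smooth muscle. These were named after their values were seen. All these distances come from the same 6 libraries and are given as a description.

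Genes that make, crosslink, bind or cleave type IV collagen were counted next, in lists chosen with earlier results of these data known. The counts are therefore only a description of these genes. Of 67 such genes 57 entered the fit, 9 were called higher at P30, 13 were called higher at P5 and 35 were not called, beside 5.89% and 5.82% of all genes fitted. The median log2 difference of the 57 was -0.28, against -0.10 for all genes fitted. Without P5 replicate 2 or without P5 replicate 3 the counts were 5 and 8. Among the called genes, P4ha3, Lama1 and Itga2 reached the minimum FPKM only through P5 and Itgb3 only through P30, the age at which each was high. Of the 9 and 13 genes, 4 and 8 were called in each fit that left out a single isolation.

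Of 19 fitted enzymes and chaperones of collagen folding and modification, 2 were called in each direction, and the median log2 difference was -0.14. P4ha2, a subunit of prolyl 4-hydroxylase, rose from 15.5 ± 1.40 to 50.1 ± 13.6 (SD, n = 3; log2 difference 1.60, SE 0.21, adjusted p = 0.00164 from limma), and Colgalt2, which adds galactose to hydroxylysine, rose with a log2 difference of 1.14. Fkbp10, a prolyl isomerase of the endoplasmic reticulum, fell by 1.29 on the log2 scale. P4ha3, another prolyl 4-hydroxylase subunit, was 9.61, 8.60 and 12.9 at P5 and was listed at 0 in all P30 isolations. The call of P4ha2 was lost without P5 replicate 3 (adjusted p = 0.0115 from limma), and that of P4ha3 when any of the P5 isolations was left out (adjusted p from 0.0117 to 0.0185 in limma). That of Colgalt2 was lost without P5 replicate 2, P5 replicate 3 or P30 replicate 3 (adjusted p from 0.00343 to 0.0124 in limma, the lowest where the 2-fold limit was missed). Serpinh1, the collagen chaperone HSP47, was 1822 ± 134 at P5 and 947 ± 21.1 at P30 (log2 difference -0.94, adjusted p = 0.000539 from limma), under the 2-fold limit as Col4a2 was. Sparc, a matrix protein that binds collagen, had the highest level of the list, at 8708 ± 603 and 6625 ± 1885, with overlap.

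Of 6 fitted crosslinking genes, 2 were called higher at P5 and 1 at P30. Pxdn, the peroxidase that forms the sulfilimine bonds of type IV collagen, was 378, 381 and 378 at P5 and 101, 165 and 127 at P30. The P5 values were nearly equal and no P30 value came within a factor of 2 of them (log2 difference -1.55, SE 0.17, adjusted p = 0.000705 from limma). Loxl2, a lysyl oxidase, fell from 202 ± 10.6 to 80.0 ± 15.8 (log2 difference -1.34). Tgm2, a transglutaminase, rose from 265 ± 13.0 to 787 ± 175 (log2 difference 1.54). All 3 calls held whichever isolation was left out.

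Of 15 fitted partner proteins of the basement membrane, 8 were called higher at P5 and 2 higher at P30, and the median log2 difference was -1.04. The laminin chain Lama1 had an FPKM of 30.3, 34.8 and 41.7 at P5 and of 2.23, 9.67 and 2.67 at P30 (log2 difference -2.85, SE 0.46, adjusted p = 0.00328 from limma). Its call was lost when any of the P5 isolations was left out (adjusted p from 0.0139 to 0.0225 in limma). Col18a1, a collagen with heparan sulfate chains, fell by 2.07, Lamb1 by 1.51 and Lama4 by 1.45 on the log2 scale. The call of Lamb1 was lost without each P5 isolation in turn and without P30 replicate 1 (adjusted p from 0.0101 to 0.0193 in limma). The most abundant genes of the list were Col15a1, which fell from 2077 ± 206 to 834 ± 131, and the perlecan gene Hspg2, at 1644 ± 76.6 and 1041 ± 45.0 and under the 2-fold limit. In the other direction, Lamb2 rose from 298 ± 54.0 to 717 ± 7.35 (log2 difference 1.28, adjusted p = 0.000724 from limma) and Lama3 from 16.2 ± 0.896 to 38.5 ± 3.09 (1.20, adjusted p = 0.00137 from limma). Lama3 was not called without P5 replicate 2 (adjusted p = 0.0119 from limma).

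Of 10 fitted receptor genes, 2 were called higher at P30 and 1 higher at P5, with a median log2 difference of 0.48. Itga2, the α subunit of the collagen receptor α2β1, was 40.1, 43.0 and 45.2 at P5 and 3.65, 3.17 and 2.03 at P30. All P30 values were far below the lowest P5 value (log2 difference -3.49, SE 0.24, adjusted p = 0.000168 from limma). Itga3, the α subunit of α3β1, rose from 89.3 ± 5.13 to 329 ± 75.7 (log2 difference 1.85, adjusted p = 0.000334 from limma). Itgb3, the β subunit of αvβ3, rose from 4.81 ± 1.90 to 23.2 ± 9.02, a call that was lost when any isolation other than P30 replicate 1 was left out (adjusted p from 0.0176 to 0.0284 in limma). Itgb1, the shared β subunit of the collagen-binding integrins, was the most abundant of the list, at 1882 ± 30.4 and 1323 ± 143. It was lower at P30 without overlap (log2 difference -0.51, adjusted p = 0.00923 from limma) but under the 2-fold limit, and so was not called.

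Of 7 fitted genes of degradation and its inhibitors, 2 were called higher at P30 and none at P5. Timp3, the inhibitor of metalloproteinases that is held in the matrix and is a known component of Bruch's membrane, had 2011, 1895 and 1656 at P5 and 11146, 8468 and 10022 at P30. The lowest P30 isolation was over 4 times the highest of P5 (log2 difference 2.41, SE 0.14, adjusted p = 0.000111 from limma). Timp2 rose from 189 ± 28.0 to 385 ± 92.9, a 2.03-fold difference close to the limit, and its call was lost when any isolation other than P30 replicate 3 was left out (adjusted p from 0.00797 to 0.0290 in limma). Ctsb, a cathepsin, was the other most abundant gene of the list, at 532 ± 37.3 and 488 ± 66.7, with overlap. With 0 genes called higher at P5 by limma, 4 of the 7 were lower at P30 at an unadjusted p below 0.05. The share of all genes fitted at that limit was not computed, so this count has no background. Among those 4, the protease Mmp14 was lower in every P30 isolation, at 408 ± 11.2 and 200 ± 84.5 (adjusted p = 0.0149 from limma), a gene named after its values were seen.

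**Figure D5:**
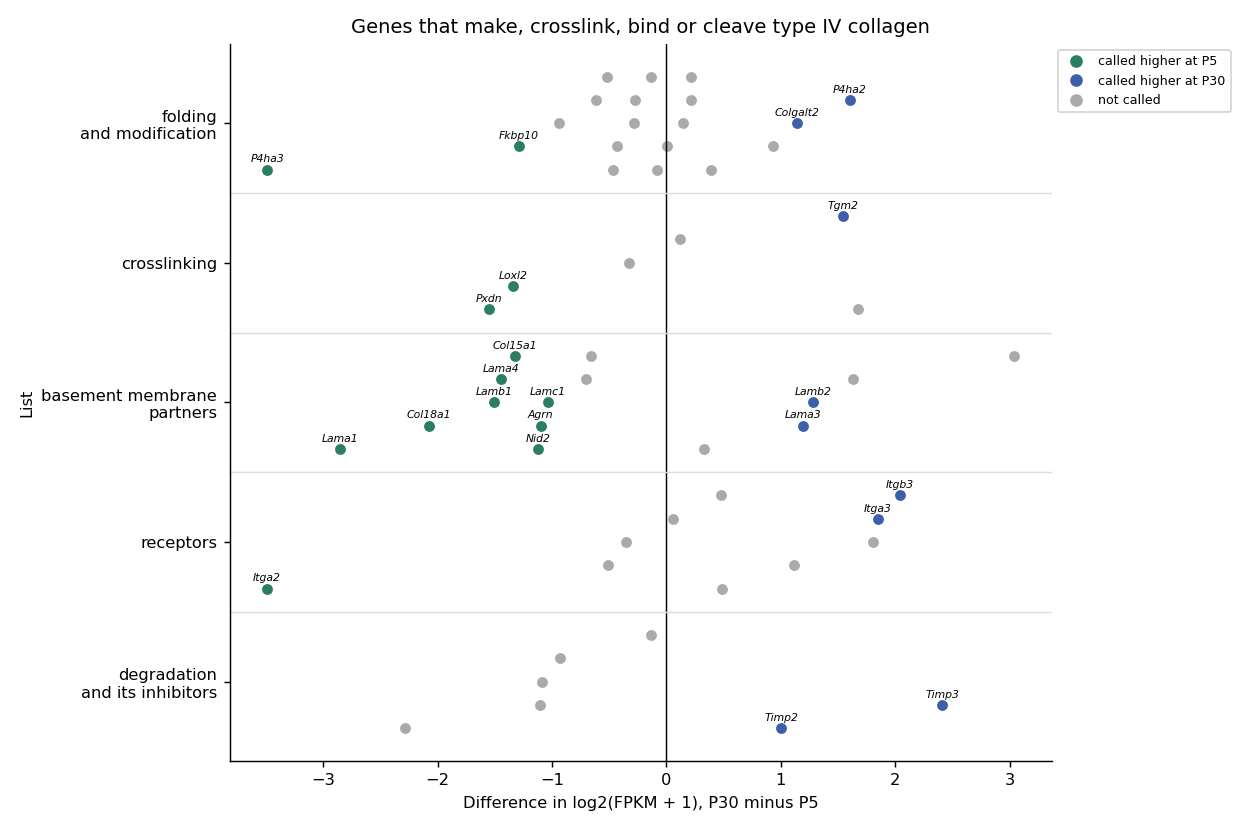
Difference in log2(FPKM + 1), P30 minus P5, for the 57 fitted genes that make, crosslink, bind or cleave type IV collagen, by list; each point is a gene, green called higher at P5, blue called higher at P30, grey not called, and the vertical offset within a list only separates points. The basement membrane partners hold 8 of the 13 genes called higher at P5, Timp3 at 2.41 is the farthest called gene on the right, and Itga2 and P4ha3, both at -3.49, are the farthest on the left.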

How the data were processed

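RNAseq was carried out by the authors on sorted choroid ECs, with 3 isolations per age. According to the submitters' processing notes and methods, reads were handled with CASAVA 1.8.2 and FastQC and aligned to mm9 with TopHat. CuffLinks, normalizing for GC content and to the upper quartile, then gave the FPKM that the authors deposited, 1 value per gene symbol and isolation. The versions of TopHat and CuffLinks and the annotation are not given in the sources used here. The authors tested read counts with DESeq2, and those counts were not used here. Depth is therefore unknown, and no bin of 0.05 in the log2 ratio of FPKM values under 2 held over 4.58% of the genes in any pair of isolations.

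Isolations were grouped by the age in their labels. From the deposited FPKM, log2(FPKM + 1) was tested with limma 3.58.1 in R 4.3.3 (eBayes with trend, no block) over genes with a mean of at least 5 at 1 age or both. Calls needed an adjusted p under 0.01 and 2-fold in mean FPKM + 1, the authors' limits. Single values were compared with exact permutation tests. Python 3.11.15, numpy 2.4.6, pandas 2.3.3, scipy 1.17.1 and matplotlib 3.10.9 were used. The fit was also run on simulated data, with changes planted only in genes of higher mean FPKM than Col4a3, Col4a4 and Col4a6. The planted changes were larger than those of Col4a1 and Col4a2. The simulation therefore does not bear on the calls of these chains.

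The members and lists were chosen with earlier results of these data known. Named were the 6 chains and, in each companion list, the called genes, up to 4 per direction by size, and the 2 of highest mean. Also named were the 3 genes nearest in profile to Col4a1 and to Col4a3, and the 2 of highest P30 mean in each marker list, except the photoreceptor list, which is not reported here. Of 67 companion genes 66 were listed, 6 of them under older symbols; Mia3 was not analysed here. Positions and sequences are from mm9 (GENCODE), and RefSeq promoter windows (250 bases before to 50 after the start, GRCm38.p6) matched 5 of the 6 chains, all but Col4a3. Alternatives were other pseudocounts, filters and scalings, no trend, a replicate block, the fold change taken from the limma coefficient, other averages, and each isolation left out in turn.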

Additional observations from a re-analysis of the deposited data

How the results depend on the processing

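Of 230 values recomputed under the alternatives, 197 were taken as the same, 11 lost a call, 3 gained one and 19 moved further. For a chain, the same meant an unchanged call, and for a share, ratio or sum a difference within the larger SD of the ages. For a count it meant a set factor, by which 9 companion genes higher at P5 in place of 13 were the same. Among log2 differences, shares, ratios and sums 0 turned in direction, and a count could not turn. With a replicate block, Col4a4 was not called (log2 difference 2.19, SE 0.43, adjusted p = 0.0148 from limma), so 1 chain was called higher at P30, and the block changed no other call of a chain. Across genes, deviations from the age means correlated at -0.06, -0.09 and -0.03 for isolations with the same number. For those with different numbers the correlations ran from -0.03 to 0.10. Whether isolations with the same number were prepared together is not given in the sources used here, and these correlations cannot settle it. Col4a2 was called higher at P5 with quantile normalization (-1.45, adjusted p = 0.000269 from limma) and with equal FPKM sums (-1.10, adjusted p = 0.000727 from limma), which made 2 chains called higher at P5 in each case. Equal sums moved the median of all genes from -0.10 to -0.27 and the share of calls that were higher at P30 from 50.3% to 37.1%. Quantile normalization also moved the difference in the share of Col4a1 from -7.02 to -9.26 percentage points, that of Col4a2 from 4.79 to 6.61, the ratio of Col4a1 to Col4a2 from -0.343 to -0.485 and the family sum from -3637 to -6443 FPKM. The cause of these shifts was not tested. With each isolation left out in turn, the log2 difference ranged from -1.46 to -1.13 for Col4a1, -1.09 to -0.83 for Col4a2, 2.38 to 3.13 for Col4a3, 1.87 to 2.46 for Col4a4, 0.56 to 1.63 for Col4a5 and 1.64 to 2.31 for Col4a6, which could not be fitted without P30 replicate 2. The chains called ranged from 0 to 2 in each direction and the companion genes called from 5 to 9 higher at P30 and 8 to 15 higher at P5. In the same fits the number of all genes called higher at P5 fell from 726 to between 291 and 427 when a P5 isolation was left out. Unknown depth limits most the values of Col4a6 and of Col4a3 and Col4a4 at P5, which lay under 5 FPKM.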
